A study of Mus musculus with 3 samples.

Results

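The genes of the GATA-TAL1 complex and of its repressor partners GFI1B and GFI1 were examined for FLI1 and RUNX1 reads in MKMat, the mature megakaryocytes whose cytoplasm breaks up into platelets. The members are 10 genes out of 22368 in the mouse annotation (GENCODE M1 on mm9; protein-coding records plus Gfi1, which is annotated there as a processed transcript). They were taken by name: Gata1, Gata2, Tal1, Lyl1, Tcf3, Lmo2, Ldb1, Zfpm1, Gfi1b and Gfi1. In blood cells, GATA1 or GATA2 binds DNA beside a dimer of TAL1 (or its relative LYL1) with an E protein such as the product of Tcf3, and LMO2 and LDB1 bridge these DNA-binding proteins. FOG1, made from Zfpm1, is a cofactor of GATA1, and GFI1B and GFI1 are related zinc-finger repressors. The complex is known to control megakaryocyte and red cell genes, together with the ETS factor FLI1 and the Runt factor RUNX1 in megakaryocytes.

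Megakaryocytes were grown for 5 days with thrombopoietin from fetal livers of wild-type CD1 mice, then depleted of red cells and myeloid cells with antibodies and enriched for large cells over albumin gradients. The embryonic day is E15 in the labels and differs in the methods, as does the library kit. The labels give sonication for the chromatin, whereas the methods name an input digested with micrococcal nuclease (an enzyme that cuts between nucleosomes) beside sonicated FLI1 and RUNX1 chromatin, so folds over input may rest on chromatin cut in another way than the ChIP. The input reads were 34 bp long and the FLI1 and RUNX1 reads 50 bp, and whether this changed the folds was not tested. Within 200 bp of gene starts the input was at 0.98 times its genome mean over all genes and at 0.75 times over the 10 members (28 reads). Within 2 kb, the window of the promoter folds, it was at 1.04 times over all genes and 1.14 times over the members (425 reads). There is 1 ChIP-seq library for FLI1, 1 for RUNX1 and 1 for input (chromatin sequenced without an antibody), with the DNA of 3 or more precipitates combined in each ChIP library, so no replicate spread could be taken and no test between groups was possible. With 1 read kept per position and strand, the deposited files held 62946422 FLI1, 3973856 RUNX1 and 21745220 input nuclear reads. Divided over the 5848713 bins of 400 bp that held any FLI1 read, these gave 10.8, 0.679 and 3.72 reads a bin. This average is the genome mean used throughout. At the deposited RUNX1 depth, single bins therefore rest on few reads. The RUNX1 file holds far fewer reads than the unique tags listed for that library by the study, and the cause was not tested. Every interval below is an exact 95% interval of a ratio of 2 read counts (Clopper-Pearson), and covers counting error only.

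The labelled cell type was checked at the promoters of marker genes, within 2 kb of the start. FLI1 reads at the megakaryocyte genes Itga2b, Itgb3, Gp9, Gp1ba and Pf4 lay between 2.58-fold and 5.50-fold over input, so 5 of 5 were at 2-fold or more, whereas RUNX1 lay between 1.62-fold and 2.37-fold and reached 2-fold at Gp9 alone. FLI1 also reached 2-fold at 1 of 3 red cell markers (Epor, 2.40-fold) and 1 of 3 granulocyte and macrophage markers (Mpo, 2.44-fold), and at 0 of 2 lymphoid and 0 of 2 liver markers. RUNX1 at these 10 genes lay between 0.53-fold and 1.88-fold, a range that overlaps that of the megakaryocyte genes. Of all genes, 25.5% were at 2-fold or more for FLI1 and 16.7% for RUNX1. The study lists Epor among the genes whose transcripts rise in mature megakaryocytes. Reads at a promoter are not expression.

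The promoter comparison asked how much FLI1 and RUNX1 DNA lay within 2 kb of each member's start, taken as the 5′ end of its gene record. Among the 10 members FLI1 was at 2-fold or more over depth-scaled input at 5 (Lyl1, Zfpm1, Tal1, Tcf3 and Ldb1), beside 25.5% of the 21575 genes with enough input reads. RUNX1 reached 2-fold at 5 (Tal1, Zfpm1, Lyl1, Gfi1b and Tcf3), beside 16.7% of genes. Within 1 kb of the start it did so at 7, with Gata2 and Ldb1 (2.05-fold, 0.35 to 8.55) added. No share of all genes was taken within 1 kb. Over all genes RUNX1 was at 1.33 times its genome mean within 2 kb of starts and 2.17 times within 200 bp. The median over members was 2.69-fold for FLI1 and 1.99-fold for RUNX1, beside 1.28-fold and 1.18-fold over all genes. Both GATA genes, Lmo2 and Gfi1 were below 2-fold for both factors at this start. At other annotated starts FLI1 reached 2.39-fold (1.57 to 3.80) for Gata1-003 and 2.14-fold (1.49 to 3.16) for Lmo2-201, and RUNX1 was 2.13-fold (0.75 to 5.34) within 1 kb of the Gata2 start. Over the genome mean of each ChIP library, without input, 6 members were at 2-fold or more for FLI1, with Lmo2 added at 2.30-fold, beside 28% of genes, and the RUNX1 count was 5, beside 17.1%.

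**Figure D1:**
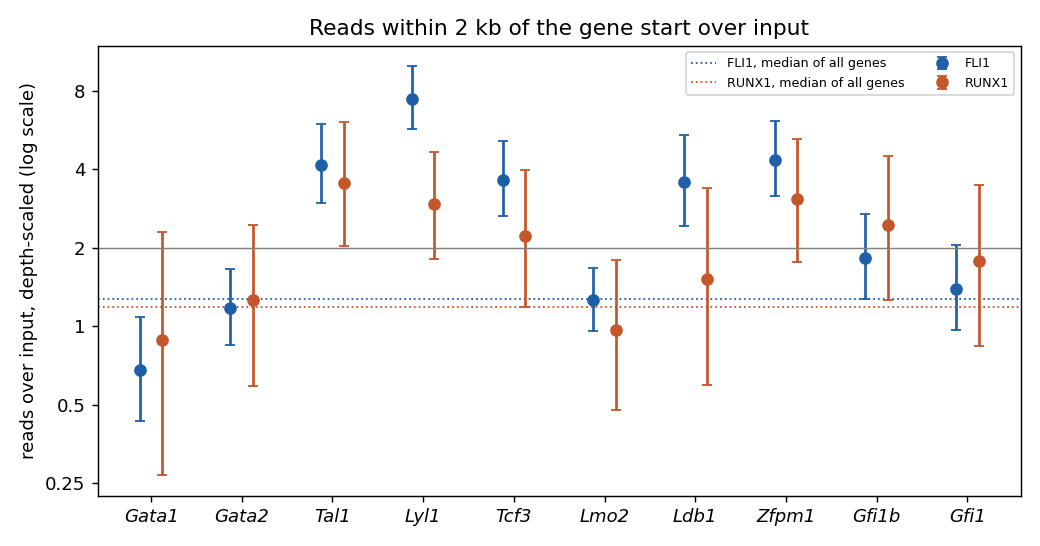
Reads within 2 kb of the gene start over depth-scaled input (log axis) for the 10 members, FLI1 in blue and RUNX1 in orange, with exact 95% intervals of the ratio of counts; dotted lines are the medians of all genes and the grey line marks 2-fold. Lyl1 stands highest for FLI1 at 7.45-fold, and the RUNX1 intervals are wide because its deposited file holds few reads.

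The territory of each member, its gene body and 20 kb to either side, was then divided into bins of 400 bp. A bin was called for FLI1 at 3-fold or more over expected reads (the larger of the genome mean and the local input over 5 kb) and for RUNX1 at 3-fold and 5 reads or more. Of 1479 bins in the 10 territories, 76 (5.14%) were called for FLI1, beside 0.935% of bins in the territories of all genes. RUNX1 was called in 24 bins (1.62%), beside 0.424%, and in 12 bins of 200 bp or 37 of 800 bp. Joined together, the FLI1 bins made 58 regions, of which 18 lay within 2 kb of an annotated transcript start of the member, 13 in introns, 11 upstream and 16 downstream. Of the 40 regions away from the members' starts, 8 were within 2 kb of the start of another gene. Lyl1 had the highest share of called bins (11%) and Gfi1 the lowest (0.806%). Of the 6 FLI1 regions of Lyl1, 3 lay away from its start and within 2 kb of another gene's start. The share of Lyl1 therefore cannot be given to this gene alone. Tal1 (7.91%) and Zfpm1 (7.56%) had 0 such regions.

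**Figure D2:**
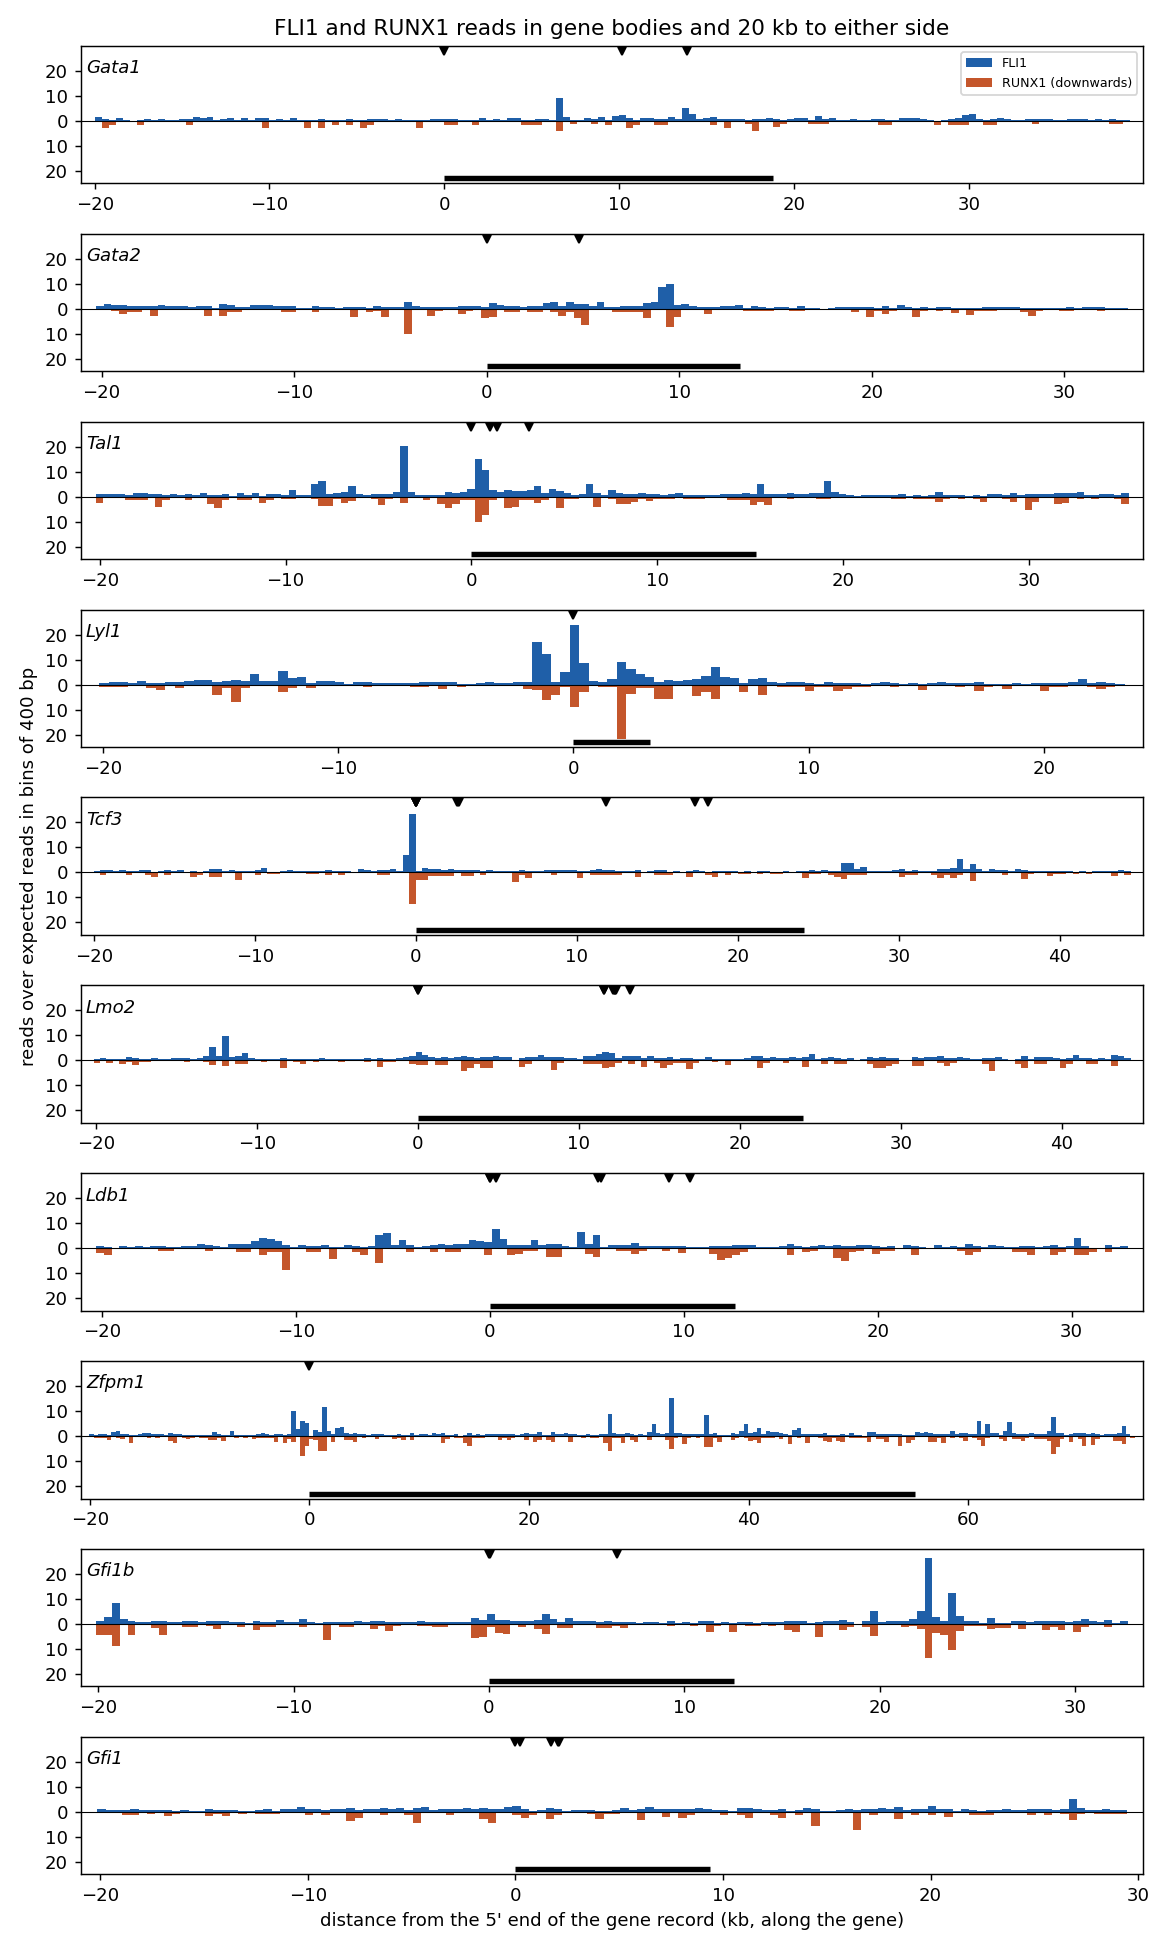
FLI1 reads (blue, upwards) and RUNX1 reads (orange, downwards) over expected reads in bins of 400 bp along each member, against distance from the 5′ end of the gene record; the black bar is the gene body and triangles mark annotated transcript starts. The tallest FLI1 bins of Gata1, Gata2, Lmo2 and Gfi1b stand apart from the starts, and those of Lyl1 and Tcf3 stand on them.

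Inside and outside the start windows were then compared within each gene. For 7 of the 10 members the strongest FLI1 bin outside the start windows was higher over expected than the strongest bin inside them, beside 62.5% of the 14869 protein-coding genes with a called FLI1 bin in their territory and 69.2% of 22368 genes in all, so the members' share was near the background. The exceptions were Lyl1, Tcf3 and Ldb1. The count was 5 with bins of 200 bp, where Tal1 and Zfpm1 were higher at a start, and 8 with unshifted reads, where Ldb1 was higher elsewhere. For every member more bins lay outside the start windows than inside, and a maximum over more bins tends to be higher. Pooled over the regions, FLI1 was 8.51-fold over input (7.05 to 10.4) in the 18 regions at starts and 5.86-fold (5.21 to 6.60) in the 40 elsewhere. With regions beside another gene's start left out, the value elsewhere was 5.91-fold (5.21 to 6.73). The regions had been called with these same FLI1 reads, so raised folds follow from the calling, which the intervals do not cover. All genes had 6.37-fold and 4.67-fold, split by the nearest start of any protein-coding gene and so not as the members were. The members' bins at starts held 111 FLI1 and 4.52 input reads on average, and those of the 40 regions elsewhere 99.1 and 5.84. Lyl1 gave 1092 of the 2784 FLI1 reads at starts. Without Lyl1 the folds were 6.88 (5.53 to 8.65) and 6.05 (5.34 to 6.87), with overlapping intervals, and the reads per bin were 84.6 at starts and 104 elsewhere.

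**Figure D3:**
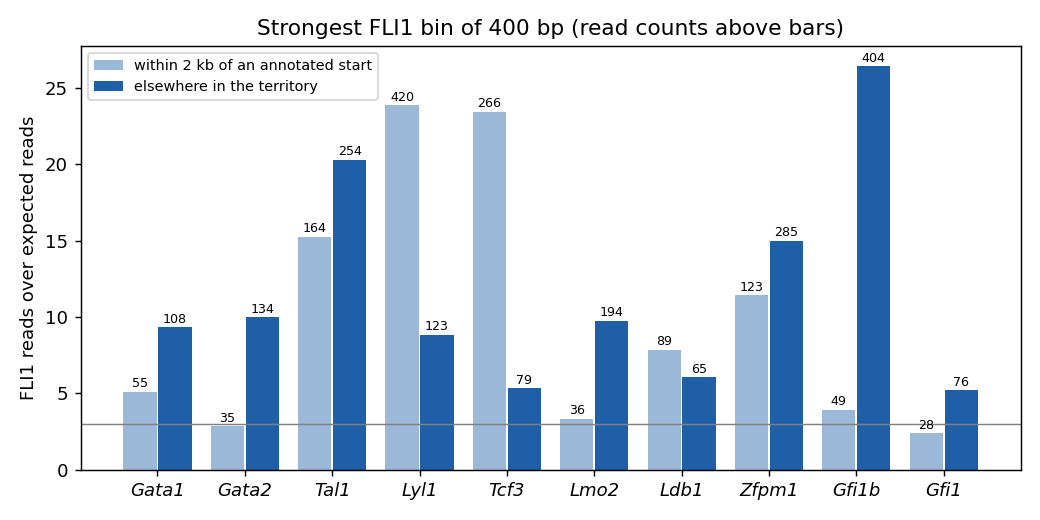
FLI1 reads over expected reads in the strongest bin of 400 bp within 2 kb of an annotated start (light) and elsewhere in the territory (dark) of each member, with the read count above each bar and the 3-fold limit as a grey line. Gfi1b has the widest gap, 49 reads at the start against 404 reads elsewhere.

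Gata1 (mm9 chrX:7536386-7555197, minus strand) encodes the GATA factor that megakaryocytes and red cells depend on. Around the 5′ end of its gene record there were 61 FLI1, 5 RUNX1 and 31 input reads, which is 0.68-fold (0.43 to 1.08) for FLI1 and 0.88-fold for RUNX1. This end lies upstream of the first exon used in blood, the start of transcript Gata1-001, where 130 FLI1 and 24 input reads gave 1.87-fold (1.20 to 3.03). The strongest bin of the territory was in the element known as -3.5, named like all elements here by its distance in kb from the start, where 108 FLI1, 3 RUNX1 and 3 input reads gave 9.33-fold over expected FLI1. Its summit lay at -3523 bp from the blood start. The element +3.5, in an intron and 96 bp from the annotated start of the short transcript Gata1-003, had 55 FLI1 reads (5.11-fold over expected), 0 RUNX1 and 0 input reads, so the -3.5 bin held more, with a start-to-elsewhere ratio of 0.51 (0.36 to 0.71). At +3.5 a count of 0 allows up to 3 RUNX1 reads, where 0.679 were expected. The distal element -25 had 15 FLI1, 0 RUNX1 and 6 input reads and was not called.

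Gata2 (mm9 chr6:88143885-88157024, plus strand) encodes the GATA factor of stem and progenitor cells. Its start had 163 FLI1, 11 RUNX1 and 48 input reads, 1.17-fold (0.85 to 1.65) for FLI1 and 1.25-fold (0.59 to 2.45) for RUNX1. Within 1 kb of this start FLI1 was 1.88-fold (1.13 to 3.30). The second start, of Gata2-201, had 1.93-fold FLI1 (1.39 to 2.75). Against these, the intronic +9.5 element held 134 FLI1, 6 RUNX1 and 6 input reads in 1 bin, 9.98-fold and 7.08-fold over expected. The strongest bin near a start held 35 FLI1 reads, 0.26 times as many (0.17 to 0.38). The far upstream -77 element, beyond the territory, had 308 FLI1, 6 RUNX1 and 4 input reads in its strongest bin, 14.3-fold over expected for FLI1 and 4.41-fold for RUNX1. Over its whole window of 1 kb to either side, RUNX1 was 2.94-fold over input (1.67 to 5.05). At the upstream -3.9 element the order of the factors was the opposite: RUNX1 had 9 reads (4 and 5 on the strands) where 0.892 were expected, 10.1-fold, and FLI1 38 reads, 2.69-fold and below its limit. The -2.8 and -1.8 elements had 13 and 14 FLI1 reads and 1 and 2 RUNX1 reads, and neither was called for either factor.

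The DNA under these GATA gene elements is shown for the motifs that it holds, 100 bases to either side of the FLI1 summit in mm9 and read along the gene. Capitals mark matches on either strand to ETS letters, which are CCGGAA, the related AGGAAG or the related CGGAAG, to RUNX letters, which are TGTGGT or the related TGCGGT, and to GATA letters, which are AGATAA or the related TGATAA, and an E-box (CANNTG) only where 7 to 9 bases part it from a GATA match that follows. In Gata1 -3.5 (chrX:7548459-7548659, minus strand, intron of the gene record) and Gata2 +9.5 (chr6:88153086-88153286, plus strand, intron) the capitals include such a paired E-box and GATA. Gata2 -77 (chr6:88067046-88067246, plus strand, intergenic) has 1 ETS and 3 RUNX matches and no match to the GATA letters searched. It does hold AGATAG and TGATAG on the other strand, forms that were not searched.
Gata1 -3.5: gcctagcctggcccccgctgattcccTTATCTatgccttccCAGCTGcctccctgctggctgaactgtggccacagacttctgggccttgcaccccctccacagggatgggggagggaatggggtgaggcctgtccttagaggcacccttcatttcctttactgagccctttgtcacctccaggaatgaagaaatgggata
Gata2 +9.5: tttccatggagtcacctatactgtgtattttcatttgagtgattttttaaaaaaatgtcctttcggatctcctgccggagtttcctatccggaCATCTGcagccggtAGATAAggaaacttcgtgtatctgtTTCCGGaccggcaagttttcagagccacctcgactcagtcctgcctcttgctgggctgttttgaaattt
Gata2 -77: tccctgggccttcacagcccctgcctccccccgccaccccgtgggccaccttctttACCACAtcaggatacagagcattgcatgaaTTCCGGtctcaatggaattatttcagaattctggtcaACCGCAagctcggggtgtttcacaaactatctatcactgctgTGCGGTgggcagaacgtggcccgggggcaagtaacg

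Tal1 (mm9 chr4:114729031-114744360, plus strand) encodes a basic helix-loop-helix subunit of the complex, and both factors were found at its start. There were 444 FLI1, 24 RUNX1 and 37 input reads, 4.15-fold (2.96 to 5.97) for FLI1 and 3.55-fold (2.03 to 6.09) for RUNX1. The RUNX1 intervals of Tal1, Zfpm1 and Lyl1 overlapped, and their order changed with the window and the scaling: within 1 kb Zfpm1 (6.96-fold) and Gfi1b (5.11-fold) were above Tal1 (4.32-fold), and over the genome mean Lyl1 (4.41-fold) was above Tal1 (3.53-fold). The region with its summit 574 bp into the gene held 280 FLI1, 12 RUNX1 and 10 input reads, and RUNX1 there was 6.57-fold over input (2.60 to 17).

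Among its distal elements, Tal1 -3.8 was the strongest bin, with 254 FLI1, 2 RUNX1 and 2 input reads, 20.3-fold over expected FLI1. Its summit lay at -3654 bp from the start, and the strongest start bin, with 164 FLI1 reads, had 0.65 times as many (0.53 to 0.79). With bins of 200 bp that ratio was 0.95 (0.74 to 1.22), so the order of the start and the -3.8 element depended on the bin. FLI1 was also called downstream of the gene at the +19 element, known from blood stem cells, with 133 FLI1, 1 RUNX1 and 8 input reads (6.18-fold). At +40, near the neighbouring gene Pdzk1ip1, 103 FLI1, 13 RUNX1 and 1 input reads were counted, 7.06-fold over expected for FLI1 and 14.1-fold for RUNX1. Of the 4 Tal1 elements, +40 was the only one with more than 2 RUNX1 reads in its bin. At -9 the strongest bin (89 FLI1, 1 RUNX1 and 8 input reads, 5.06-fold) only overlapped the edge of the window, with its summit at -8440 bp, and the window itself was at 1.34-fold over input (0.75 to 2.54).

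The Tal1 sequences are shown because they differ in matches to the letters searched, with capitals as for the GATA genes. The summit at -3.8 (chr4:114725277-114725477, plus strand, upstream) holds no ETS, RUNX or GATA match of the letters searched, the start region (chr4:114729505-114729705, plus strand, intron) has 2 overlapping ETS matches, and +40 (chr4:114768440-114768640, plus strand, downstream) has 1 GATA match and no RUNX match. The -3.8 sequence does hold GGAA, which all the ETS letters share, on the other strand (ttcc).
Tal1 -3.8: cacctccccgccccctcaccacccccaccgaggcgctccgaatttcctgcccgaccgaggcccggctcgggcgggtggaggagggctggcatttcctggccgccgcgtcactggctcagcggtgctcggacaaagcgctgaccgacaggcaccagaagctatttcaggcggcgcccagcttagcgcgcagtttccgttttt
Tal1 start region: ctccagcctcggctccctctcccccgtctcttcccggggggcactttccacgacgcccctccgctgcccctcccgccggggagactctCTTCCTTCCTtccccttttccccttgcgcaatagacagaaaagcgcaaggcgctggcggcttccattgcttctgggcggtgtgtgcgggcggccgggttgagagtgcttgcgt
Tal1 +40: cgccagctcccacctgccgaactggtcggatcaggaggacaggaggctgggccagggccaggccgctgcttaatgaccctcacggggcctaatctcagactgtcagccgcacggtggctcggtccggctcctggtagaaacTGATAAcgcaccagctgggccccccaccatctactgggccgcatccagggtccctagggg

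Lyl1 (mm9 chr8:87225356-87228614, plus strand) encodes a close relative of TAL1. Its promoter was the richest in FLI1 of the members, with 1207 FLI1, 30 RUNX1 and 56 input reads, 7.45-fold (5.69 to 9.92) for FLI1 and 2.93-fold (1.82 to 4.65) for RUNX1. The FLI1 value was above that of 99.8% of genes. Within 1 kb of the start Lyl1 was 8.73-fold and Ldb1 9.24-fold (4.61 to 21.7), so this rank holds for the window of 2 kb. The strongest bin, 44 bp from the annotated start, held 420 FLI1, 10 RUNX1 and 4 input reads (23.9-fold over expected FLI1), and a separate region with its summit at -1369 bp held 445 FLI1 reads over 2 bins. That summit is 1690 bp from a start of the neighbour Trmt1, so reads there cannot be given to Lyl1 alone.

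RUNX1 was also counted in the bins of this gene. The bin with most RUNX1 reads, in the intron 2044 bp downstream of the start, had 19 RUNX1 reads (11 and 8 on the strands), 13 input and 123 FLI1 reads, 21.7-fold over expected RUNX1, the highest of all 10 territories by this measure. Over the input of the bin itself it was 8-fold (3.75 to 17.6), below the start bin at 13.7-fold (3.95 to 59.8), with overlapping intervals. The start bin had 0.53 times as many RUNX1 reads (0.22 to 1.19), so the order of these bins by RUNX1 was not resolved at this depth, whereas FLI1 was 3.41 times higher at the start (2.79 to 4.21). Over the intronic region RUNX1 was 6.29-fold over input (3.30 to 12.1). The sequence at its summit (chr8:87227423-87227623, plus strand) is shown for its 4 RUNX matches, in capitals. It has no match to the ETS or GATA letters searched, though it holds AGATAG, a form that was not searched.
Lyl1 intron: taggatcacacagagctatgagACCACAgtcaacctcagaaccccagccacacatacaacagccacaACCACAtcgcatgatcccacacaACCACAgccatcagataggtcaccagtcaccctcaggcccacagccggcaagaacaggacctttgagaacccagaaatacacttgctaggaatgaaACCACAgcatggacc

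Tcf3 (mm9 chr10:79872259-79896392, minus strand) encodes the E proteins E12 and E47, which pair with TAL1 and LYL1. Within 2 kb of its start lay 443 FLI1, 17 RUNX1 and 42 input reads, 3.64-fold (2.65 to 5.13) for FLI1 and 2.21-fold (1.18 to 3.98) for RUNX1. Most of this came from 1 bin just upstream of the start, with 266 FLI1, 9 RUNX1 and 7 input reads, 23.4-fold and 12.6-fold over expected. The other 3 FLI1 regions of its territory lay beside the starts of the neighbours Mbd3 and Uqcr11, and the strongest of these bins had 79 FLI1 reads. With the neighbours' starts left out, the strongest bin elsewhere had 31 FLI1 reads and was not called, and the start bin had 8.58 times as many (5.90 to 12.9). The starts of its shorter transcripts, inside the gene, were between 0.58-fold and 1.15-fold for FLI1. Tcf3 was therefore the one member with no called FLI1 bin outside the starts of genes. The summit upstream of its start (chr10:79896606-79896806, minus strand) is shown with its 3 ETS matches, of which a pair overlap, and 1 GATA match in capitals.
Tcf3 start region: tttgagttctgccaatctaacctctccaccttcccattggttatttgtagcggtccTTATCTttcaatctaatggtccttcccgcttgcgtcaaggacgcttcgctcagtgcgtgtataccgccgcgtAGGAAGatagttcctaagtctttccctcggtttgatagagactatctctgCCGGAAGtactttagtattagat

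Lmo2 (mm9 chr2:103798143-103822035, plus strand) encodes the LIM-only bridging protein. The distal promoter, where the gene record begins, had 248 FLI1, 12 RUNX1 and 68 input reads, 1.26-fold (0.96 to 1.67) for FLI1 and 0.97-fold (0.48 to 1.80) for RUNX1. The proximal promoter, at the start of Lmo2-001, had 217 FLI1 and 39 input reads, 1.92-fold (1.36 to 2.78). In single bins the distal elements held more FLI1 reads than the starts. Counted from the proximal start, the strongest bin held 99 in the window at -75, 110 at -70 and 194 at -25. These bins were 7.37-fold, 6.33-fold and 9.74-fold over expected. RUNX1 had 4, 3 and 3 reads in these bins, and no bin of the Lmo2 territory was called for RUNX1. Over the whole windows of 2 kb to either side, as at the promoters, FLI1 over input differed less. It was 2.63-fold (1.91 to 3.70) at -75, 1.62-fold (1.22 to 2.19) at -70 and 2.62-fold (2.03 to 3.44) at -25. All 3 intervals overlapped that of the proximal promoter. In the windows at -12 (which holds the distal start) and +1 the strongest bins had 60 and 36 FLI1 reads, 3.28-fold and 3.34-fold, just past the limit. The strongest start bin, with 36 reads, had 0.19 times the FLI1 reads of the -25 bin (0.13 to 0.27). This ratio was 0.31 with scaling by reads outside called bins, where the bin with 60 reads was the strongest at a start, 0.34 with bins of 200 bp, and 0.29 when bins were chosen on the plus strand and measured on the minus strand.

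Ldb1 (mm9 chr19:46107083-46119704, minus strand) encodes the LIM-domain-binding protein that joins complexes at distant sites. Its start had 299 FLI1, 8 RUNX1 and 29 input reads, 3.56-fold (2.43 to 5.41) for FLI1 and 1.51-fold (0.60 to 3.38) for RUNX1. The region that holds its strongest bin (89 FLI1, 0 RUNX1 and 1 input reads) has its summit 183 bp from an annotated start of Pprc1, so reads there cannot be given to Ldb1 alone. The strongest bin elsewhere, 5296 bp upstream, held 65 FLI1, 0 RUNX1 and 9 input reads, and the ratio of 1.37 (0.98 to 1.92) was within counting error. FLI1 was spread over 9 regions of Ldb1, 5 of them at its several starts, with 33 to 129 reads each. RUNX1 over all 9 was 1.55-fold over input (0.77 to 2.91), an interval that holds both input level and the values of Tal1 and Zfpm1.

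Zfpm1 (mm9 chr8:124806039-124861146, plus strand) encodes FOG1, the cofactor of GATA1. Its promoter had 515 FLI1, 23 RUNX1 and 41 input reads, 4.34-fold (3.15 to 6.12) for FLI1 and 3.07-fold (1.76 to 5.24) for RUNX1. Zfpm1 also had the most FLI1 regions, 16, of which 3 were at the start, 8 in introns and 5 downstream. Its territory was the longest of the members, at 238 bins. The share of its bins called for FLI1, 7.56%, was below those of Lyl1, Ldb1 and Tal1. The strongest region, in an intron 32977 bp from the start, held 285 FLI1, 6 RUNX1 and 12 input reads, 15-fold over expected FLI1. The strongest start bin had 123 FLI1 reads (11.4-fold), 0.43 times as many (0.35 to 0.54), although with bins of 200 bp the start was slightly higher over expected, at 17.3-fold against 16.2-fold. Another intronic region, 27382 bp from the start, had 206 FLI1, 9 RUNX1 and 5 input reads, and RUNX1 was 9.85-fold over input there (2.96 to 37.4). Of the 8 intronic regions, 5 held a GATA match and 4 an ETS match, and of the 3 at the start 0 held a GATA match and 2 an ETS match. The strongest intronic summit (chr8:124838916-124839116, plus strand) is shown for its 4 ETS matches, 2 of them overlapping. It has no match to the GATA letters searched, though it holds AGATAG, a form not searched, on the other strand.
Zfpm1 intron: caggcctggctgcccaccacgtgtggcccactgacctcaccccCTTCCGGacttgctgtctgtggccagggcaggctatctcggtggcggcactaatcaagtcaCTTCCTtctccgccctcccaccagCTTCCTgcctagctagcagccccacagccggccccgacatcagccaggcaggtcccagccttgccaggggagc

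Gfi1b (mm9 chr2:28464970-28477502, minus strand) encodes the zinc-finger repressor that megakaryocytes and red cells need. Around its start were 190 FLI1, 16 RUNX1 and 36 input reads, 1.82-fold (1.27 to 2.68) for FLI1 and 2.43-fold (1.26 to 4.50) for RUNX1. Within 1 kb of the start FLI1 was 3.04-fold (1.78 to 5.59), past the 2-fold limit. That made 6 members past it, with no share of all genes taken within 1 kb. The strongest bin of all 10 territories by FLI1 fold lay 22502 bp downstream of this start, beyond the 3′ end, with 404 FLI1, 13 RUNX1 and 7 input reads, 26.4-fold and 13.5-fold over expected. With bins of 200 bp the Lyl1 start was slightly higher, at 31.9-fold against 31.1-fold for Gfi1b. The strongest start bin of Gfi1b had 49 FLI1, 1 RUNX1 and 3 input reads, 0.12 times the FLI1 reads of the downstream bin (0.09 to 0.16) and 0.077 times its RUNX1 reads (0.0018 to 0.51). A second region further downstream had a bin with 224 FLI1, 12 RUNX1 and 5 input reads, 12.2-fold and 10.4-fold over expected.

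The known elements of Gfi1b are named +13, +16 and +17. Counted from the 5′ end of the gene record these positions were not called, with 14, 18 and 22 FLI1 reads in the strongest bin. Counted from the start of the shorter transcript Gfi1b-003, a zero point chosen after the values were seen, the 3 regions downstream of the gene fell at 13018, 15998 and 17096 bp, with 68, 404 and 224 FLI1 reads in their strongest bins. These regions lay at least 14558 bp from the start of the next gene, Gtf3c5. The last 2 of them are shown because both hold an E-box and a GATA match at 7 to 9 bases, capitals as above: +16 at chr2:28454827-28455027 and +17 at chr2:28453729-28453929, both on the minus strand. The +16 sequence also has 2 ETS matches and 1 RUNX match.
Gfi1b +16: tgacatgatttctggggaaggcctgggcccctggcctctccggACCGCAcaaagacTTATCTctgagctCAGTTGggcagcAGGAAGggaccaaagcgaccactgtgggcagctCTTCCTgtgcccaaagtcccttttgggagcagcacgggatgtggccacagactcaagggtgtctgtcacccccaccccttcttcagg
Gfi1b +17: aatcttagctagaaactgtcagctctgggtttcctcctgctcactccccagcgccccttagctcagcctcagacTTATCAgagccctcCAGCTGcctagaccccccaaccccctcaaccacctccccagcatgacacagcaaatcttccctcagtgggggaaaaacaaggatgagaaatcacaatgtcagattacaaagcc

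Gfi1 (mm9 chr5:108145674-108155056, minus strand) encodes the related repressor of stem cells and granulocytes, and had the fewest bins called for FLI1, 1, beside 1 called for RUNX1. Its start had 149 FLI1, 12 RUNX1 and 37 input reads, 1.39-fold (0.97 to 2.05) for FLI1 and 1.77-fold (0.84 to 3.48) for RUNX1, and none of its other starts was above 1.44-fold for FLI1. The single FLI1 region, 26976 bp from the start and downstream of the gene, had 76 FLI1, 3 RUNX1 and 5 input reads (5.21-fold over expected FLI1). The -35 element had 12 FLI1, 1 RUNX1 and 9 input reads and was not called. At the promoter, Gfi1 and Gfi1b had overlapping intervals for both factors. They differed in the strongest bin elsewhere, with 76 FLI1 reads for Gfi1 and 404 for Gfi1b.

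**Figure D4:**
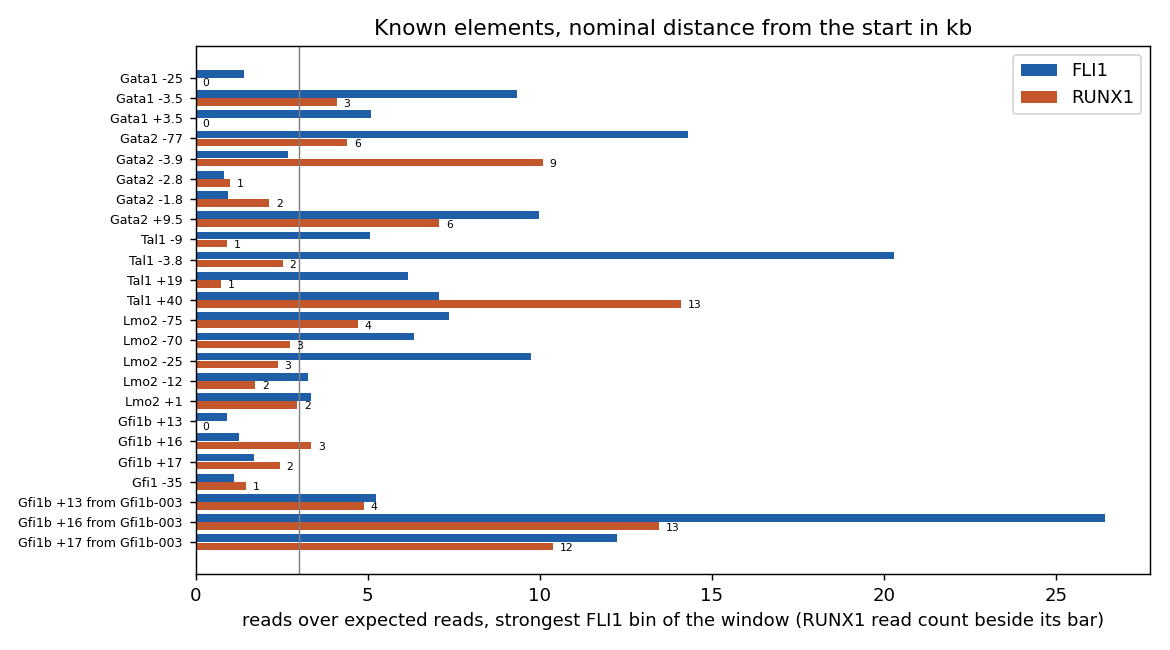
Reads over expected reads for FLI1 (blue) and RUNX1 (orange) in the strongest FLI1 bin of the window at each known element, named by gene and nominal distance in kb, with the RUNX1 read count beside its bar and the 3-fold limit as a grey line. For RUNX1 the highest bars are Gata2 -3.9 and Tal1 +40 (9 and 13 reads) and, from Gfi1b-003, Gfi1b +16 and +17 (13 and 12 reads, 13.5-fold and 10.4-fold), and for FLI1 Tal1 -3.8 and Gfi1b +16 (20.3-fold and 26.4-fold).

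RUNX1 reads were then counted in the FLI1 regions, which had been called with FLI1 and input reads and without RUNX1 reads. The same input library is the divisor of the RUNX1 folds below. Over the 58 regions there were 229 RUNX1 and 411 input reads, 3.05-fold (2.58 to 3.59), beside 2.31-fold over the 24787 FLI1 regions in the territories of all genes. In the members' bins not called for FLI1, RUNX1 was 0.91-fold (0.86 to 0.97). RUNX1 was 3.39-fold (2.48 to 4.61) in the 18 regions at starts and 2.92-fold (2.39 to 3.55) in the 40 elsewhere, overlapping intervals. All genes had 2.90-fold and 1.87-fold, split by the nearest start of any protein-coding gene and so not as the members were. With the 8 regions beside another gene's start left out, the value elsewhere was 2.85-fold (2.30 to 3.53). By gene, Gata1, Gata2, Lmo2 and Gfi1 had only 3 to 9 RUNX1 reads in their FLI1 regions and wide intervals. Of the others, RUNX1 was highest at Gfi1b, 4.74-fold (3.11 to 7.20), and Lyl1, 4.53-fold (3.09 to 6.63), then 3.00-fold (1.56 to 5.59) at Tcf3, 2.69-fold (1.90 to 3.75) at Zfpm1, 2.22-fold (1.35 to 3.56) at Tal1 and 1.55-fold at Ldb1. Neighbours in this order overlapped in their intervals. Taken singly, 14 of the 58 regions had a RUNX1 interval above 1, beside 16.8% of all FLI1 regions, and 15 of the 76 FLI1 bins were also called for RUNX1, beside 9.41%.

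Motifs were counted 100 bases to either side of the FLI1 summits on both strands. An ETS match was in 39 of the 58 regions (67.2%), beside 76.5% of FLI1 regions of all genes and 27.3% of windows of the same length 1 kb away from those. A GATA match was in 20 (34.5%), beside 21.2% and 17.9%, and by place it was in 4 of 18 regions at starts and 16 of 40 elsewhere. A RUNX match was in 14 (24.1%), beside 27.7% and 16.9%, with 1 of 18 at starts and 13 of 40 elsewhere. Of the 14 regions with a RUNX1 interval above 1, 3 held a RUNX match, and of the other 44 regions 11 did.

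An E-box, with or without a GATA match, was in 30 of the 58 regions (51.7%), beside 58.7% of all FLI1 regions and 64.7% of windows 1 kb away. An E-box and a GATA match with 7 to 9 bases between them, the arrangement that the GATA-TAL1 complex is known to bind, were in 4 of 58 (6.90%), beside 0.892% of all FLI1 regions and 0.295% of windows 1 kb away. These 4 are the sequences of Gata1 -3.5, Gata2 +9.5, Gfi1b +16 and Gfi1b +17 printed above, all away from starts. The GFI1 letters AAATCA were in 5 regions (8.62%), beside 7.17% and 13.3%. A match is a run of letters and not a bound site, and the number of members with it is small. Other forms of these motifs were not searched.

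Other genes of the same pathway, 20 cofactors, corepressors and related factors, were counted at their starts in the same way. FLI1 was at 2-fold or more at 12 of 20 and RUNX1 at 9 of 20, with medians of 2.07-fold and 1.74-fold, beside 25.5% and 16.7% of all genes at 2-fold. Highest for FLI1 were Nfe2, the blood-restricted subunit of NF-E2, at 4.92-fold (3.66 to 6.77), Cbfa2t3, which encodes the corepressor ETO2 of the TAL1 complex, at 4.91-fold (3.72 to 6.62), and Sp1, a general activator, at 4.85-fold (3.38 to 7.17). Lowest were Klf1, the red cell activator, at 0.80-fold (0.61 to 1.06), Ldb2, the relative of Ldb1, at 1.03-fold (0.72 to 1.50), and the deacetylase gene Hdac2, at 1.11-fold (0.78 to 1.61). RUNX1 at Nfe2, Cbfa2t3 and Sp1 was 4.66-fold (2.98 to 7.25), 3.30-fold (2.06 to 5.22) and 1.71-fold (0.75 to 3.57). The highest RUNX1 value of these genes was 4.86-fold (2.69 to 8.76) at Rcor1, which encodes the corepressor CoREST.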

How the data were processed

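FLI1, RUNX1 and input DNA of mature megakaryocytes had been sequenced in 1 library each, and the labels give the group of each. The authors used Bowtie (version not given in the sources used here) to map to mm9, kept unique reads and deposited chromosome, start, end and strand of each read. The deposited values are positions, of no other unit, so every count was made here. Of 10000 reads per ChIP library, 96.9% and 98.2% matched mm9 with at most 3 mismatches. Mitochondrial reads and the 3.24% of input reads at a repeated position were dropped, and 5′ ends were moved 75 bp. MACS and SICER, which the submitters' processing notes name, were not used.

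Folds over input were scaled by nuclear reads. Gene starts and transcripts are from GENCODE M1, and the share of all genes uses those with 5 or more input reads. Element positions are nominal distances from general knowledge (windows of 0.5, 1 or 2 kb to either side). Bin calling was checked on simulated reads. All members and known elements are named, each member's strongest FLI1 bin or region at a start and elsewhere, and of the other pathway genes the 3 highest and 3 lowest by FLI1. One marker gene of the list is not reported here. The members, lists and elements were chosen with earlier results of these data known. Python 3.11.15, numpy 2.4.6, scipy 1.17.1, pandas 2.3.3 and pysam 0.24.0 were used. Alternatives changed the read shift, input duplicates, scaling, windows, starts, bins, limits, depth, flank and strand.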

Additional observations from a re-analysis of the deposited data

How the results depend on the processing

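With bins of 200 bp the strongest FLI1 bin of Tal1 (23.2-fold against 20.7-fold) and of Zfpm1 (17.3-fold against 16.2-fold) moved to a start, and with unshifted reads that of Ldb1 moved away from it (6.37-fold against 6.69-fold). With a promoter limit of 3-fold, 2 members were past it for RUNX1, where 5 were at 2-fold, and no share of all genes was taken at 3-fold. The number of FLI1 regions, 58 as reported, was 88 with bins of 200 bp, 34 with bins of 800 bp and 36 with a bin limit of 5-fold. The percent of bins called, 5.14 as reported, was 9.60 at a limit of 2-fold and 3.11 at 5-fold. Of the other alternatives to the main counts and to the pooled RUNX1 fold, 53 stayed within 1.5 times or within the interval, and that fold ranged from 2.94 to 3.17. RUNX1 bins called were 12 with bins of 200 bp and 37 with bins of 800 bp, and 8 other alternatives that could change the count stayed within 1.5 times. Of single genes' values that a setting could change, 192 stayed and 18 moved, of which 8 in a window of 1 kb. For FLI1 these were Ldb1 9.24-fold, Tcf3 6.63-fold, Tal1 6.45-fold, Zfpm1 6.12-fold, Gfi1b 3.04-fold and Gata2 1.88-fold. For RUNX1 they were Zfpm1 6.96-fold and Gfi1b 5.11-fold. With the start richest in FLI1, Gata1 was 2.39-fold. Leaving out the starts of other genes, the Gfi1b zero point, RUNX1 reads of 1 strand at a time and promoter folds over the genome mean (Lyl1 11.2-fold and Lmo2 2.30-fold for FLI1) were chosen after the data were seen. No paired analysis was possible because each antibody had 1 library. The RUNX1 depth limits single bins, and thinning FLI1 to it left 45 regions.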

Other observations

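Of the 24 bins called for RUNX1 in the members' territories, 9 were not called for FLI1, beside 79.3% of the RUNX1 bins in the territories of all genes. The one with most reads was Gata2 -3.9, with 9 RUNX1 reads. The other 8 held 5 or 6 RUNX1 reads each and lay at the second start of Gata2, downstream of Tal1 and Gfi1, upstream of Ldb1 and Lyl1, in an intron of Zfpm1, and upstream and downstream of Gfi1b. The bins in the Zfpm1 intron and downstream of Gfi1b each adjoin a bin called for both factors, so they lie at the edge of an FLI1 region. Those of Ldb1 and Lyl1 were within 829 and 761 bp of the starts of the neighbours Pprc1 and Nacc1. The larger count of 1 strand was 3 or 4 in these 8 bins. Whether reads of opposite strands came from the same fragments was not tested, so the larger count of 1 strand is the least number of fragments.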
